A study of Homo sapiens with 8 samples.

Results

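The genes described here encode subunits of phosphoinositide 3-kinase (PI3K), an inhibitor of that kinase and 2 phosphatases that act on its lipid products. They are the catalytic subunits PIK3CA, PIK3CB and PIK3CD, the regulatory subunits PIK3R1, PIK3R2 and PIK3R3, the PI3K-interacting protein PIK3IP1, and the phosphatases INPP4B and INPP5D. They were taken by symbol and are 9 of the 20531 genes in each deposited table. The set was selected on the normalised read counts of these same 8 libraries, through their differences between treatments and lines, so that every value below is a description and none is a test.

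Polyadenylated RNA was sequenced from SKBR-3 and BT474m1, 2 HER2-amplified lines of human breast carcinoma, the first without and the second with the hormone receptors for estrogen and progesterone. Cells were kept for 48 h in the vehicle DMSO, in lapatinib at 300 nM, in JQ1 at 300 nM, or in the 2 drugs combined. Lapatinib blocks the tyrosine kinases EGFR and HER2, and JQ1 displaces the BET family of bromodomain proteins from acetylated histones. This gave 8 groups of 1 library each, so no difference can be set against a spread between cultures. Each line stands for 1 culture per treatment, grown without stroma or immune cells.

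Class I PI3K is a dimer of a catalytic and a regulatory subunit. Activated receptors such as HER2/HER3 dimers recruit the regulatory subunit to the membrane, and the catalytic subunit then phosphorylates the 3 position of the inositol ring of PIP2 to give PIP3. PIP3 draws AKT to the membrane, and AKT in turn activates mTOR and keeps FOXO transcription factors out of the nucleus. INPP5D (SHIP1) and its relatives remove the phosphate at the 5 position of PIP3, and INPP4B removes the phosphate at the 4 position of the product that remains. PIK3IP1 is a transmembrane protein that binds the catalytic subunit and inhibits it. HER2-amplified breast cancer cells depend on this route for much of their growth signal.

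Forkhead factors, the family of FOXO3 and FOXA1, were examined by the study in cells given lapatinib, so a forkhead motif was looked for near the start sites of the 9 genes. The 7 letters GTAAACA or GTCAACA were searched on both strands in the window from 250 bases before to 50 bases after each start in RefSeq (GRCh38.p14). All 9 genes matched the table, with 26 windows in all, and 2 windows held a match, 1 of PIK3CA and 1 of PIK3IP1. Over the whole table, 1973 of 35116 windows (5.62%) held one. The 2 sites are shown because they are the ones found at these genes. The capitals mark the motif as it reads on the strand of the gene, TGTTTAC, which is GTAAACA on the other strand.
PIK3CA: agttcgttgttTGTTTACacgatgtgagc
PIK3IP1: taaagagaggcTGTTTACcagaacagcat
The PIK3CA site lies at chr3:179148197-179148225 on the plus strand, and its motif begins 149 bases upstream of the start. The PIK3IP1 site lies at chr22:31292455-31292483 on the minus strand, and its motif begins 16 bases downstream of the inner of 2 annotated starts. A match of letters is a description of the window and says nothing of binding, and the tables hold no measure of it.

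The values are normalised read counts: RSEM estimates that the authors divided by the upper quartile of a library (genes at 0 left out) and multiplied by 1000. The depth ran from 21420113 to 34112379 reads on genes, and 1 read was worth 0.471 to 0.766 units. Log2 fold changes are differences of log2(value + 1), and a gene is called changed at a fold of 2 or more. The 95% counting intervals in brackets were computed from recovered reads, and those of fold changes leave out the pseudocount. They cover counting error only and not the spread between cultures, which was not measured. All 9 genes passed the filter of 10 units in at least 1 library, as did 14429 of all genes. Of the 72 values of these genes, 68 were whole numbers of reads within a tolerance of 0.05. The other 4 were those of PIK3CD in SKBR-3.

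Of the 6 luminal epithelial markers, EPCAM, KRT8, KRT18, KRT19 and GATA3 stood above 1000 units in every library. CDH1, which encodes E-cadherin, was near the floor in SKBR-3, at 4.29 (DMSO), 6.13 (lapatinib), 2.58 (JQ1) and 15.1 units (both drugs), against 19414 to 24373 in BT474m1. The summed level of the 6 was 150770 to 508824 (SKBR-3) and 85847 to 123113 (BT474m1). ERBB2, which encodes HER2, reached 277872 units in SKBR-3 and 118705 in BT474m1. PIK3CD and INPP5D are best known from leukocytes, and of 8 leukocyte markers only CSF1R (up to 83.8 units) reached 10 units in SKBR-3 and only LYZ (up to 80.7) in BT474m1. The defining leukocyte genes PTPRC, CD3E and CD14 stayed below 10 units in every library. MS4A1 was at 0 throughout SKBR-3 and TYROBP throughout BT474m1. Of the fibroblast markers, only COL1A1 reached 10 units, and of the endothelial markers only CDH5 and VWF.

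PIK3IP1, the inhibitor, was raised by lapatinib in both lines and was still raised with both drugs. SKBR-3 had 338 units with DMSO, 2007 with lapatinib, 255 under JQ1 and 2760.45 under both drugs. BT474m1 had 417, 2533, 514 and 2265 in the same order. The 4 libraries with lapatinib all lay above the 4 without it, and the lowest of the former was 3.90 times the highest of the latter. In the order of the 8 libraries no 2 neighbours had overlapping counting intervals. The leukocyte marker LYZ was likewise high in the 2 BT474m1 libraries with lapatinib (80.7 and 71.1 units, against 11.8 and 14.0 without it) and at most 2.30 units in SKBR-3, and its part in the PIK3IP1 result was not tested.

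Lapatinib raised PIK3IP1 5.93-fold in SKBR-3 (log2 2.57, 2.43 to 2.71) and 6.06-fold in BT474m1 (log2 2.60, 2.50 to 2.71). JQ1 alone left it within a fold of 2, at a log2 fold change of -0.41 (-0.61 to -0.21) in SKBR-3 and 0.30 (0.17 to 0.43) in BT474m1. Both drugs together gave 8.15-fold over DMSO in SKBR-3 and 5.42-fold in BT474m1. In bulk RNA, a change in the level of a gene per cell and a change in the share of cells that carry it cannot be told apart.

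INPP5D, the 5-phosphatase SHIP1, was raised by lapatinib and lowered by JQ1 in both lines. From DMSO through lapatinib and JQ1 to both drugs, it stood at 23.6, 157, 2.58 and 28.2 units in SKBR-3. The BT474m1 units were 158, 637, 49.3 and 183. Lapatinib gave the highest and JQ1 the lowest value in each line, and the values with both drugs lay next to those with DMSO.

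The log2 fold change of INPP5D with lapatinib was 2.68 (2.20 to 3.31) in SKBR-3 and 2.004 (1.83 to 2.19) in BT474m1. With JQ1 it was -2.78 (-5.15 to -1.70) in SKBR-3, where the JQ1 value rests on 4 reads and the log2 fold change was -1.42 with a pseudocount of 10, and -1.66 (-2.01 to -1.36) in BT474m1. With both drugs against DMSO it was 0.25 (-0.44 to 0.96) and 0.21 (-0.01 to 0.44), so that no difference from DMSO was detectable at this depth. When JQ1 was added to lapatinib, the log2 fold change of INPP5D against lapatinib alone was -2.44 (-2.997 to -1.99) in SKBR-3 and -1.79 (-1.98 to -1.62) in BT474m1. The summed leukocyte markers lay between 8.94 and 93.8 units in SKBR-3 and between 17.9 and 90.4 in BT474m1, with PTPRC below 10 units in all 8 libraries. The 1 leukocyte marker of each line that reached 10 units moved with INPP5D for 1 of the drugs. Below 10 units, CD3E, CD14 and ITGAM were also lower in the 2 SKBR-3 libraries with JQ1 than in the 2 without it. LYZ, the lysozyme gene, stood at 11.8, 80.7, 14.0 and 71.1 units in BT474m1 (DMSO, lapatinib, JQ1, both drugs), high in the 2 libraries with lapatinib. CSF1R, the receptor of a macrophage growth factor, stood at 83.8, 45.2, 10.3 and 7.57 in SKBR-3, low in the 2 with JQ1. The endothelial markers CDH5 (126, 71.2, 19.97 and 16.5 units) and VWF (22.9, 24.5, 1.93 and 11.7) were also low with JQ1 in SKBR-3. CDH5 in BT474m1 was at 36.3 units with DMSO, and at 0, 3.86 and 1.17 with lapatinib, JQ1 and both drugs. In BT474m1 the fibroblast marker COL1A1 (1253, 1211, 394 and 337) and the endothelial marker VWF (153, 30.7, 11.1 and 5.25) were lower in the 2 libraries with JQ1 than in the 2 without it, as INPP4B was. The part of these markers in the INPP5D and INPP4B results was not tested. The other fibroblast markers stayed below 10 units in both lines, as did PECAM1 and KDR.

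INPP4B, the 4-phosphatase, was the gene of the 9 that differed most between the lines with DMSO. In the order DMSO, lapatinib, JQ1 and both drugs, SKBR-3 held 35.8, 75.8, 56.7 and 60.5 units, and BT474m1 held 1425, 3067, 125 and 293. Each BT474m1 library lay above each SKBR-3 library, and the highest value was 85.7 times the lowest.

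With lapatinib the log2 fold change of INPP4B was 1.06 (0.58 to 1.60) in SKBR-3 and 1.10 (1.04 to 1.17) in BT474m1. With a pseudocount of 10 the SKBR-3 value was 0.91, under the fold of 2. JQ1 lowered INPP4B in BT474m1 to 0.0881 of the DMSO value (log2 -3.50, -3.70 to -3.33), whereas in SKBR-3 the log2 fold change was 0.65 (0.15 to 1.19). With both drugs the values were -2.28 (-2.42 to -2.15) in BT474m1 and 0.74 (0.24 to 1.29) in SKBR-3. The lines thus stood on opposite sides of 0 with JQ1, and with 1 library per group this difference between them was not tested. In the BT474m1 libraries with JQ1, lapatinib was again followed by a higher value, at a log2 fold change of 1.23 (1.01 to 1.45) for both drugs against JQ1.

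**Figure D1:**
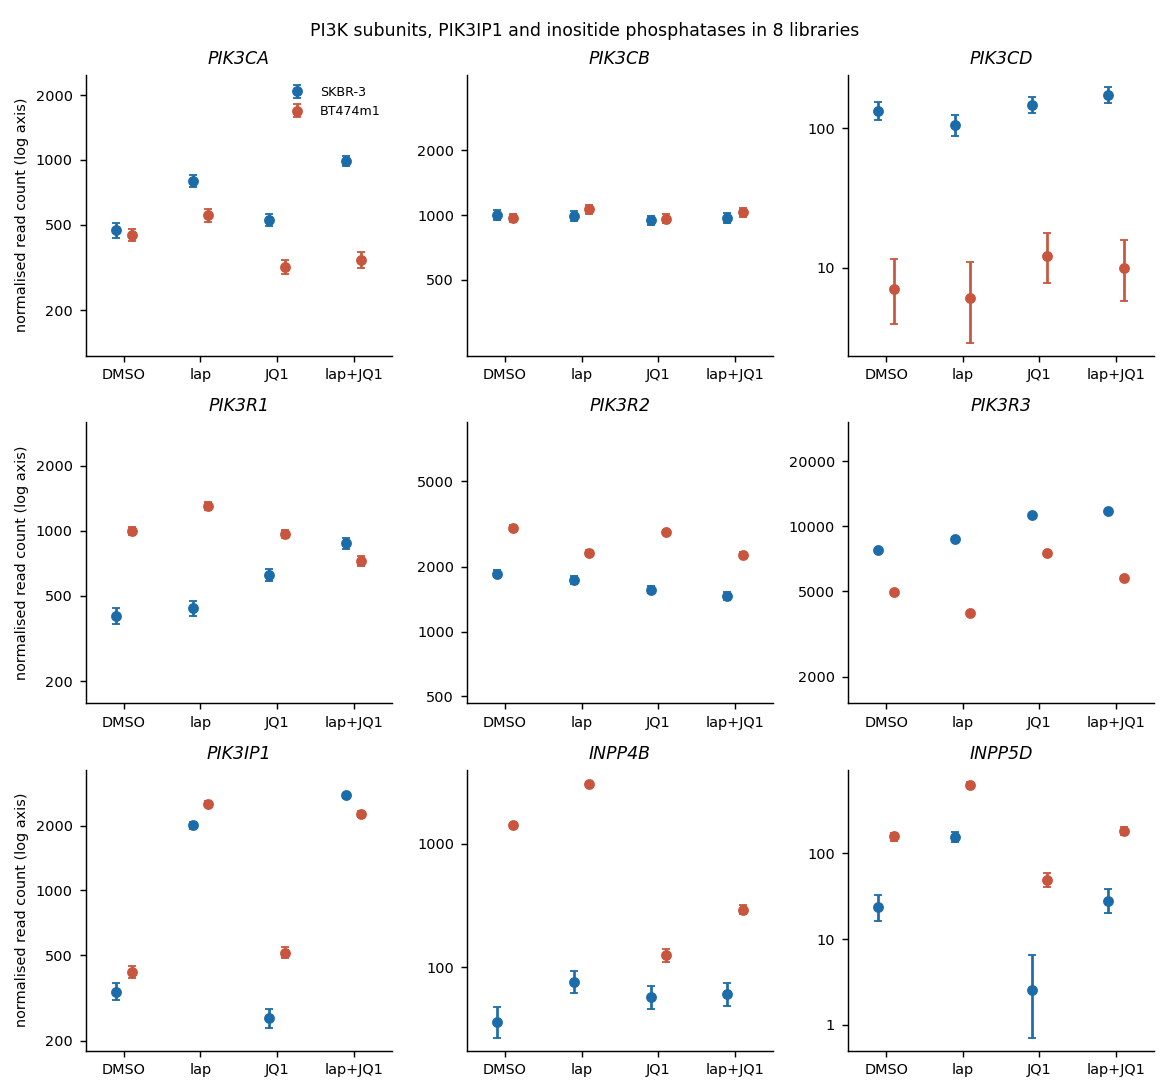
Normalised read counts (log axis) of the 9 genes in the 8 libraries, by treatment, with SKBR-3 in blue and BT474m1 in red and bars for the 95% counting interval of each library. PIK3IP1 is high in the 4 libraries with lapatinib (2007 to 2760.45), PIK3CB lies between 946 and 1063 throughout, and INPP4B of BT474m1 drops to 125 with JQ1.

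Among the catalytic subunits, PIK3CA encodes p110-alpha, the form most often activated by mutation in breast cancer. SKBR-3 contained 470.3 units in DMSO, 796 in lapatinib, 526 in JQ1 and 987 in the combination. BT474m1 contained 446, 552, 319 and 343. The lines started from similar levels, and the 2 BT474m1 libraries with JQ1 were the lowest of the 8 whereas the SKBR-3 library with both drugs was the highest. The log2 fold change with lapatinib was 0.76 (0.62 to 0.90) in SKBR-3 and 0.30 (0.17 to 0.44) in BT474m1, both under the fold of 2. With both drugs it was 1.07 (0.94 to 1.21) in SKBR-3, past that fold, and -0.38 (-0.53 to -0.23) in BT474m1. With libraries scaled to equal totals the SKBR-3 value was 0.98, just under it.

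PIK3CB encodes p110-beta, a form that is broadly expressed. The SKBR-3 values were 1006 (DMSO), 992 (lapatinib), 946 (JQ1) and 969 (both drugs), and those of BT474m1 were 967, 1063, 964 and 1031. The highest value was 1.123 times the lowest, and in the order of the 8 libraries all 7 neighbouring pairs had overlapping counting intervals. This was the narrowest range of the 9 genes.

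PIK3CD encodes p110-delta, the leukocyte form. It was measured at 133 units in SKBR-3 with DMSO, at 105 with lapatinib, at 147 with JQ1 and at 174 with the pair of drugs. The same treatments gave 7.09, 6.05, 12.1 and 9.94 units in BT474m1. The ranges of the lines did not overlap, and with DMSO the log2 difference of BT474m1 from SKBR-3 was -4.05 (-5.10 to -3.48), or -3.07 with a pseudocount of 10. No treatment reached a fold of 2 in either line, and the BT474m1 values rest on 10 to 25 reads. PIK3CD overlaps CLSTN1 and the antisense genes PIK3CD-AS1 and PIK3CD-AS2 on the other strand. The sources used here do not agree on whether the libraries kept strand, so its SKBR-3 level, which came out as fractional reads, is uncertain.

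The regulatory subunit genes differed in level and in their response. PIK3R1 encodes p85-alpha, which both stabilises and restrains the catalytic subunit. The SKBR-3 libraries gave 403 units (DMSO), 436 (lapatinib), 626 (JQ1) and 873 (both drugs). The BT474m1 libraries gave 995, 1309, 965 and 724. With both drugs PIK3R1 was thus at its highest SKBR-3 value and its lowest BT474m1 value. The log2 fold change against DMSO was 1.11 (0.97 to 1.26) in SKBR-3 and -0.46 (-0.56 to -0.36) in BT474m1.

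PIK3R2 encodes p85-beta. Under DMSO, lapatinib, JQ1 and both drugs it was at 1862, 1736, 1566 and 1465 units in SKBR-3 and at 3041, 2323, 2900.5 and 2275 in BT474m1. Each BT474m1 library lay above each SKBR-3 library, and no treatment reached a fold of 2. The log2 fold changes with both drugs were -0.35 (-0.43 to -0.26) in SKBR-3 and -0.42 (-0.48 to -0.36) in BT474m1. A second coding gene on the same strand overlaps PIK3R2. The PIK3R2 values were whole reads in all 8 libraries, and whether reads were divided between the genes was not tested.

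PIK3R3 encodes p55-gamma, a short regulatory subunit. Levels in SKBR-3 were 7728 units for DMSO, 8747 for lapatinib, 11235 for JQ1 and 11715 for both drugs. The BT474m1 levels were 4952, 3955, 7502 and 5734. In each line the libraries with JQ1 lay above those without it. The log2 fold change with JQ1 was 0.54 (0.51 to 0.57) in SKBR-3 and 0.60 (0.56 to 0.64) in BT474m1, which is under the fold of 2 in both. The readthrough gene P3R3URF-PIK3R3 overlaps it on the same strand, so the level may hold both.

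**Figure D2:**
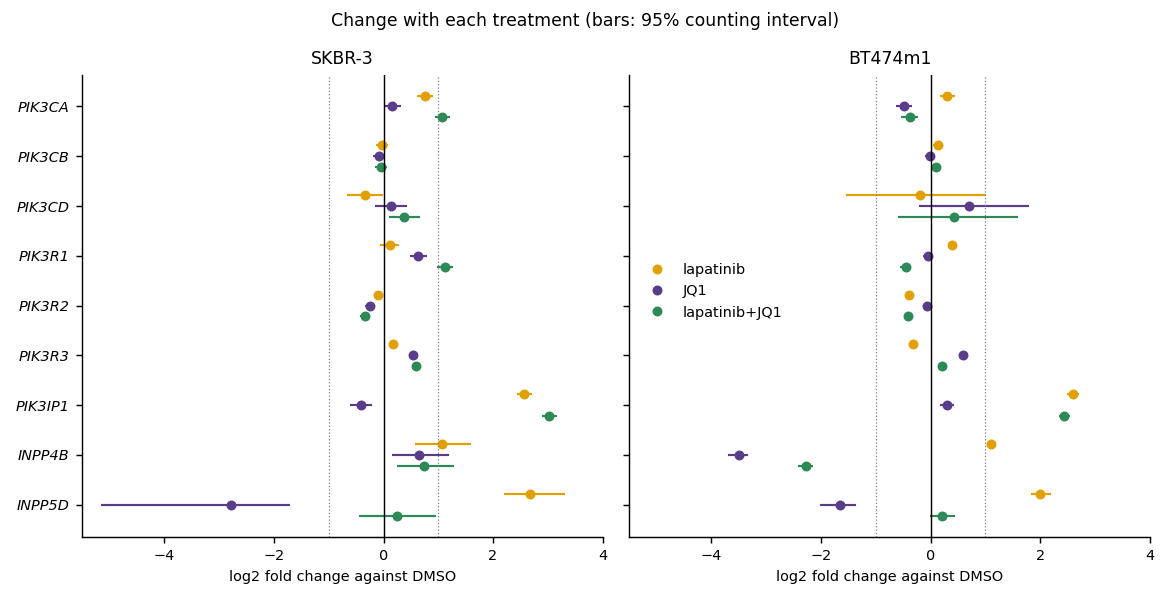
Log2 fold change of each gene against DMSO with lapatinib, JQ1 or both drugs, SKBR-3 on the left and BT474m1 on the right; bars are 95% counting intervals and dotted lines mark a fold of 2. PIK3IP1 stands at 2.57 and 2.60 with lapatinib, INPP5D moves up with lapatinib and down with JQ1 in both lines, and INPP4B reaches -3.50 with JQ1 in BT474m1.

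Levels per kilobase of the reference transcript allow the subunits to be set beside each other. Of the catalytic RNA per kilobase, PIK3CB made up 68.1% in SKBR-3 and 75.7% in BT474m1 with DMSO. PIK3CA made up 21.5% and 23.6%, and PIK3CD 10.4% and 0.642%. With both drugs the PIK3CA share was 36.3% in SKBR-3 and 18.2% in BT474m1, while the PIK3CB share was 52.8% and 80.9%. PIK3CG, the class IB catalytic subunit of leukocytes, was at 0 in 7 libraries and at 1.93 units (4 reads) in BT474m1 with JQ1.

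Of the regulatory RNA per kilobase, PIK3R3 made up 72.4% in SKBR-3 and 49.4% in BT474m1 with DMSO. PIK3R2 made up 24.5% and 42.6%, and PIK3R1 3.03% and 7.96%. The PIK3R3 share was highest in the libraries with JQ1, at 80.6% and 80.9% in SKBR-3 and 60.7% and 60.3% in BT474m1 (JQ1, then both drugs). Regulatory over catalytic RNA per kilobase was 8.07 (DMSO), 7.81 (lapatinib), 10.6 (JQ1) and 8.81 (both drugs) in SKBR-3. The BT474m1 ratios were 8.78, 6.41, 11.6 and 8.35. In both lines it was lowest with lapatinib and highest with JQ1. These are shares of RNA, and p85 and p110 protein was not measured here.

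**Figure D3:**
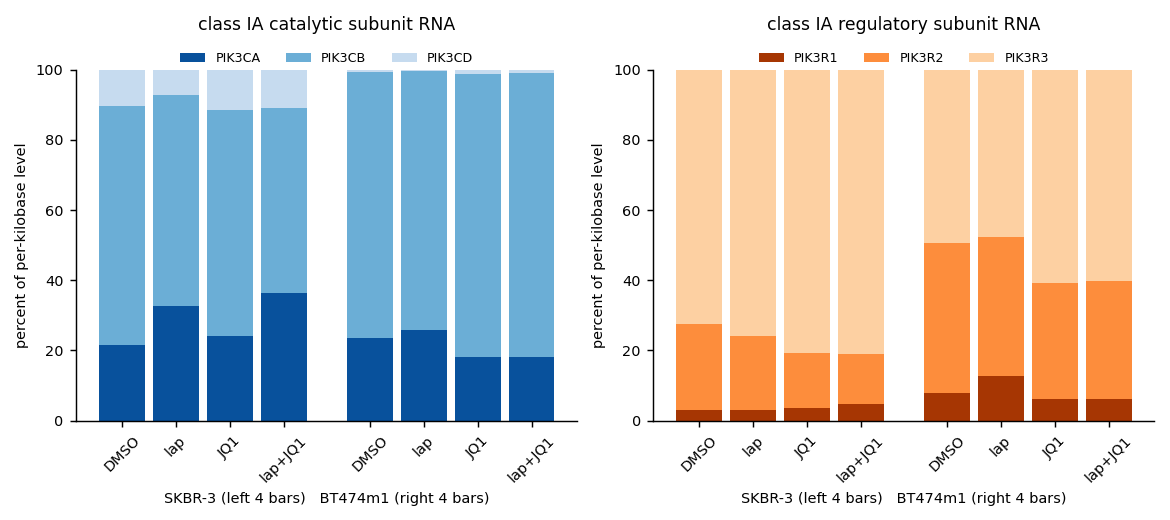
Share of each class IA subunit gene in the summed level per kilobase, catalytic subunits on the left and regulatory subunits on the right, 1 stacked bar per library. The PIK3CA share of SKBR-3 goes from 21.5% with DMSO to 36.3% with both drugs, and PIK3R3 is a larger share in SKBR-3 (72.4% with DMSO) than in BT474m1 (49.4%).

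With DMSO, 3 of the 9 genes were at least 2-fold higher in BT474m1 and 1 was at least 2-fold lower, beside 26.8% and 15.6% of the 14429 genes. INPP4B was 38.8-fold higher (log2 5.28, 4.91 to 5.75), INPP5D 6.46-fold higher (log2 2.69, 2.22 to 3.30) and PIK3R1 2.46-fold higher (log2 1.30, 1.17 to 1.44). PIK3CD was the gene that was lower. PIK3CA, PIK3CB and PIK3IP1 lay closest to equality, at -0.07, -0.06 and 0.30. The median log2 difference was 0.30 over the 9 genes and 0.21 over all genes.

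Over the treatments, 3 of the 9 genes were higher with lapatinib in each line and 0 were lower. The background was 11.1% of genes higher and 9.44% lower in SKBR-3, and 14% and 8.06% in BT474m1. The genes were PIK3IP1, INPP5D and INPP4B in both lines. None of the 6 kinase subunits reached a fold of 2 with lapatinib, the nearest being PIK3CA in SKBR-3 at 1.69-fold. The median log2 fold change was 0.18 in SKBR-3 and 0.30 in BT474m1, beside 0.05 and 0.07 over all genes.

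With JQ1, 0 genes were higher in either line. INPP5D was lower in SKBR-3, and INPP5D and INPP4B in BT474m1, where the background was 3.75% higher and 11.8% lower in SKBR-3 and 4.81% and 11.8% in BT474m1. With both drugs, PIK3IP1, PIK3CA and PIK3R1 were higher in SKBR-3 and 0 were lower, beside 10.8% and 20.8% of genes. In BT474m1 PIK3IP1 was higher and INPP4B lower, beside 14.2% and 15.3%. The contrasts of a line share its DMSO library and are not independent of each other.

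Adding JQ1 to lapatinib left PIK3IP1 within a fold of 2, at a log2 fold change of 0.46 (0.39 to 0.53) in SKBR-3 and -0.16 (-0.22 to -0.10) in BT474m1. INPP5D was the 1 gene lowered past the fold of 2 in SKBR-3, beside 16.2% of genes lower and 3.22% higher. INPP5D and INPP4B were lowered in BT474m1, beside 12.5% lower and 5.2% higher. INPP4B fell to 0.0957 of its lapatinib value there (log2 -3.38, -3.52 to -3.26). PIK3R1 in SKBR-3 was just under the fold of 2, at 1.998-fold (log2 0.998, 0.86 to 1.15), and passed it at 1.16 under scaling by the median of ratios. In BT474m1 its log2 fold change was -0.85 (-0.96 to -0.75).

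Adding lapatinib to JQ1 raised PIK3IP1 by a log2 value of 3.43 (3.29 to 3.59) in SKBR-3 and 2.14 (2.04 to 2.24) in BT474m1. The same contrast for INPP5D gave 3.03 (1.99 to 5.39) and 1.87 (1.57 to 2.23). The SKBR-3 value rests on 4 reads with JQ1 and was 1.60 with a pseudocount of 10. The genes at least 2-fold higher were these 2 in SKBR-3, beside 9.79% of genes, and these with INPP4B in BT474m1, beside 12.4%. None of the 9 genes was lower, beside 12.3% and 7.27%.

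The value with both drugs was then set against the sum of the single-drug log2 changes. PIK3IP1 lay above the sum in SKBR-3 (0.87, 0.66 to 1.07), and below it in BT474m1 (-0.46, -0.60 to -0.32). INPP4B lay below it in SKBR-3, by -0.97 (-1.62 to -0.32), on values of 35.8 to 75.8 units, and at 0.12 (-0.11 to 0.35) in BT474m1. The departure of PIK3R1 was 0.37 (0.16 to 0.57) in the former and -0.81 (-0.94 to -0.68) in the latter line. PIK3CD departed by 0.58 (0.17 to 0.99) in SKBR-3, where its reads are uncertain. INPP5D departed by 0.35 (-1.23 to 1.92) and -0.13 (-0.50 to 0.24), which was not detectable at this depth, and the SKBR-3 value turned to -0.71 with a pseudocount of 10. None of the 9 genes departed by a fold of 2, beside 11.5% of all genes in SKBR-3 and 9.45% in BT474m1.

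**Figure D4:**
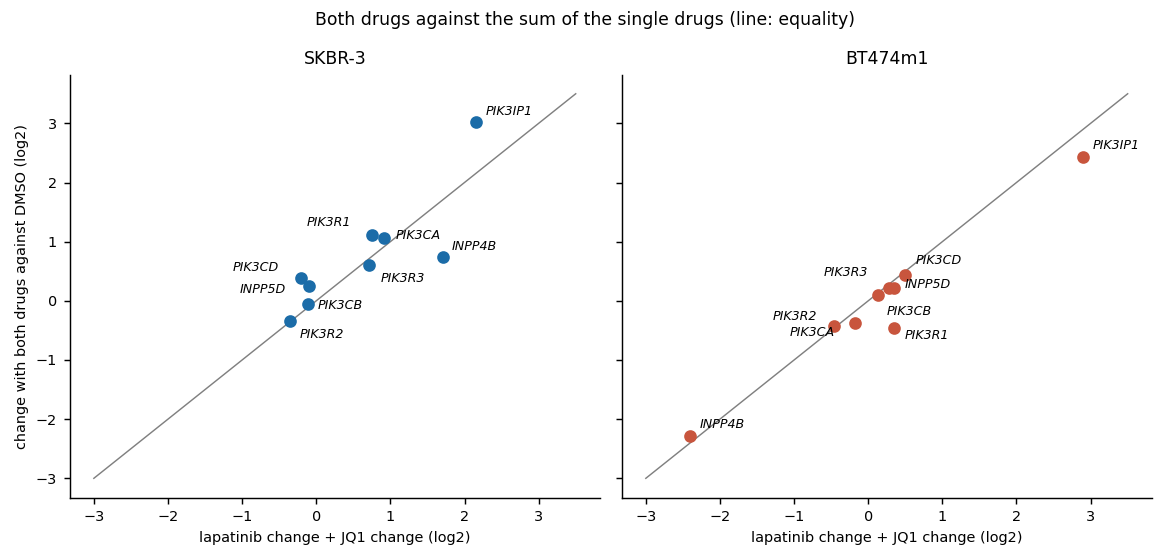
Log2 change with both drugs against the sum of the single-drug changes for the 9 genes, SKBR-3 on the left and BT474m1 on the right, with the line of equality. PIK3IP1 departs from the line by 0.87 (SKBR-3) and -0.46 (BT474m1), INPP4B by -0.97 and PIK3CD by 0.58 in SKBR-3, and PIK3R1 by -0.81 in BT474m1.

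Other genes of the route were counted in 4 lists. They hold the other PI3K genes (6 of 8 passed the filter), the other inositide phosphatases (12 of 12), the AKT and mTOR axis (17 of 17) and FOXO factors with reported targets (14 of 15). Genes given below were named by a rule: 100 units or more in at least 1 library of the contrast in each line and a fold of 2 or more in the same direction in both lines. A gene outside that rule is said to be so.

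Of the other phosphatases, 0 of 12 changed with lapatinib in either line, beside 11.1% of all genes higher and 9.44% lower in SKBR-3 and 14% and 8.06% in BT474m1. With JQ1 1 of 12 was lower in each line, beside 11.8% of all genes in both. It was INPP5J, a 5-phosphatase of PIP3, which went from 691 to 96.0 units in SKBR-3 (log2 -2.83, -3.11 to -2.60). In BT474m1 it went from 592 to 160 (log2 -1.88, -2.07 to -1.71). With both drugs INPP5K, another 5-phosphatase, was higher in both lines, at 1.11 (0.998 to 1.23) and 1.14 (1.04 to 1.23). INPP5J was also lower with both drugs in SKBR-3 and INPP4A higher in BT474m1, both chosen after their values were seen. That made 1 higher and 1 lower in SKBR-3, beside 10.8% and 20.8% of all genes, and 2 higher and 0 lower in BT474m1, beside 14.2% and 15.3%.

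Of the other PI3K genes, the class II and class III kinases stayed mostly within a fold of 2. With lapatinib the list gave 1 call in SKBR-3, PIK3C2G, which went from 0 to 2.30 units (3 reads, the floor), and 0 in BT474m1. With JQ1 it gave 0 in SKBR-3 and 1 lower gene in BT474m1, PIK3C2G again, at 25.0 units with DMSO and 1.45 (3 reads) with JQ1. With both drugs PIK3R5 was higher in SKBR-3, at 5.73 units with DMSO and 16.5 with both drugs, and PIK3C2B (756 and 273 units) and PIK3C2G were lower in BT474m1. Over all genes, 11.1% were higher and 9.44% lower with lapatinib in SKBR-3, and 14% and 8.06% in BT474m1. With JQ1 the shares were 3.75% and 11.8% in SKBR-3 and 4.81% and 11.8% in BT474m1. With both drugs they were 10.8% and 20.8% in SKBR-3 and 14.2% and 15.3% in BT474m1. PIK3C2G, PIK3R5 and PIK3C2B are outside the naming rule and were chosen after their values were seen.

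Of the 17 AKT and mTOR genes, 1 was higher with lapatinib in SKBR-3 and 0 were lower in either line. DEPTOR, a subunit that inhibits mTOR, was higher in both, at 225 and 569 units in SKBR-3 (log2 1.33, 1.14 to 1.53) and 521 and 2517 in BT474m1 (log2 2.27, 2.18 to 2.37). TSC1, which restrains mTORC1, was higher in both lines with both drugs, at 1.04 (0.89 to 1.199) and 1.75 (1.67 to 1.82). AKT1S1, another inhibitory partner of mTOR, was lower with both drugs, at -1.17 (-1.27 to -1.08) and -1.51 (-1.61 to -1.41). With both drugs 2 genes of the list were higher and 2 lower in SKBR-3, and 1 and 1 in BT474m1, beside 10.8% and 20.8% of all genes in SKBR-3 and 14.2% and 15.3% in BT474m1. The list medians with lapatinib were -0.11 and -0.06.

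Of the 14 FOXO factors and targets, lapatinib left 8 higher in SKBR-3 and 5 in BT474m1, beside 11.1% and 14% of all genes, and 0 lower in either. The list medians were 1.33 and 0.70, beside 0.05 and 0.07 over all genes. With both drugs 10 and 9 were higher, beside 10.8% and 14.2% of all genes, and 0 lower, with medians of 1.76 and 1.18. With JQ1 4 and 2 were higher, beside 3.75% and 4.81%, and 0 lower, with medians of 0.51 and 0.33. The 4 in SKBR-3 included TXNIP. TXNIP, an inhibitor of glucose uptake, was at 1555 units with DMSO, 10881 with lapatinib and 25780.2 with both drugs in SKBR-3. In BT474m1 it was at 4060, 14456 and 20571. FOXO3 went from 830 to 2342 units with lapatinib in SKBR-3 (log2 1.496, 1.399 to 1.60). The BT474m1 values were 3318 and 7360 (log2 1.15, 1.11 to 1.19). FOXO3 has a near-identical copy, FOXO3B, so its level is uncertain. CITED2, SESN3, BCL6, GADD45A and FOXO4 were named with both drugs, at log2 fold changes of 1.30 to 2.86 in SKBR-3 and 1.10 to 2.36 in BT474m1. SESN3 (42.9 units with DMSO and 107 with both drugs in SKBR-3, 23.6 and 125 in BT474m1) and FOXO4 in SKBR-3 were under 100 units with DMSO and met the rule through the libraries where they were high.

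**Figure D5:**
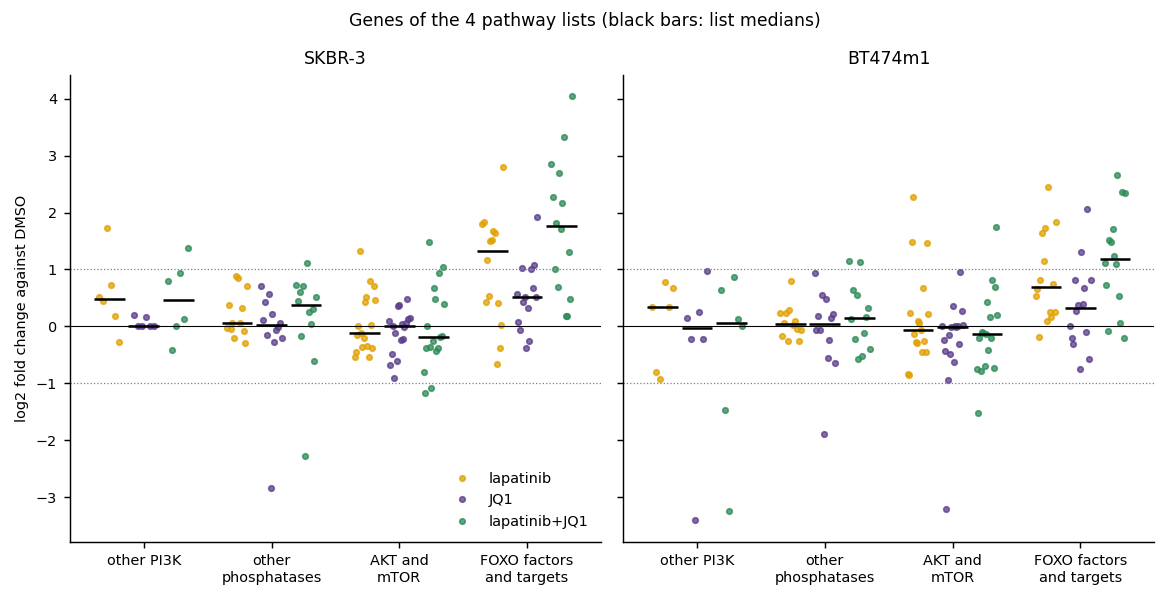
Log2 fold change against DMSO of every gene that passed the filter in the 4 lists, by treatment, with black bars for list medians and dotted lines at a fold of 2. The FOXO list medians lie above 0 with lapatinib (1.33 in SKBR-3, 0.70 in BT474m1), JQ1 (0.51, 0.33) and both drugs (1.76, 1.18). The medians of the AKT and mTOR list lie at or just below 0.

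The genes whose pattern over the 8 libraries was most like that of PIK3IP1 were EXOC1, RTN2, CDON, ZNF304 and YPEL3. Likeness was Pearson's r of log2(value + 1), centred within each line, computed over the 8 libraries for 9841 genes with 100 units or more in both lines, and ran from 0.989 to 0.993 for these 5. The 8 points share their libraries and their scaling, and the value is a description. The size of the change differed: with lapatinib YPEL3 was at a log2 fold change of 2.30 in SKBR-3 and 2.17 in BT474m1, CDON at 2.14 and 2.27, RTN2 at 2.07 and 1.62, EXOC1 at 0.74 and 0.82, and ZNF304 at 0.47 and 0.43. For INPP4B the 5 most alike were B4GALT1, CTAGE4, MLL2, ITSN2 and CASP4 (r of 0.955 to 0.979). None of these 5 fell as far with JQ1 in BT474m1 as INPP4B, the nearest being CASP4 at -1.22. CTAGE4 belongs to a family of near-identical copies, and its reads are uncertain.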

How the data were processed

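Each deposited table gives 1 signal per gene for the library of a group. Per the labels, poly(A) RNA was used, and the authors scaled RSEM estimates to an upper quartile of 1000. The submitters' processing notes list hg19 with Picard 1.88, SAMtools 1.2, RSEM, DESeq, R 3.2.2 and DESeq2 1.12.3 without roles, whereas the study's methods name hg38, STAR and Salmon. The build and aligner of these tables are therefore uncertain, and the 2 motif sites are the only coordinates printed, read from RefSeq (GRCh38.p14) and not from the tables. The labels name 2 library kits, of which only 1 is described as stranded. The labels give 48 h, which was followed. A figure legend of the study also gives 48 h for RNA sequencing of SKBR-3, whereas its general methods name a shorter treatment.

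The value of 1 read was recovered as the common step between values, and 85.0% to 86.3% of the values were whole reads within 0.05, so no count model was run. Genes with 10 units or more in at least 1 library were kept (14429, with 6102 removed). Fold changes used a pseudocount of 1, and their intervals are exact Clopper-Pearson at 95%. Intervals of departures from the sum are normal approximations, centred on the departure with the pseudocount. Those of single libraries are exact Poisson intervals. The floor of 3 reads was 1.41 to 2.30 units. With 1 library per group no test was run and no p-value is given. The intervals treat reads as independent, which PCR copies are not, and so cover counting error only. Each table held 1 library, and its values were used as deposited.

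The members, the lists and the markers were chosen with earlier results of these data known. Named genes were the 9 members, list genes with 100 units or more in each line that changed the same way in both lines, and the 5 genes most like PIK3IP1 and INPP4B. The values of some list genes are not reported here. Lengths are those of the MANE Select transcripts in GENCODE, and promoter windows are from RefSeq. The alternatives tried were scaling to equal totals, scaling by median of ratios, a pseudocount of 10, a filter at 100 units or none, and calls that also needed an interval excluding no change. In simulated data for SKBR-3 lapatinib against DMSO, 200 of 200 genes changed 4-fold were called, and 49 of 12163 unchanged ones. The simulated reads varied by counting error only. This checks the calculation and gives no rate of false calls between cultures. The work was done in Python 3.11.15 (scipy 1.17.1, pandas 2.3.3, numpy 2.4.6, matplotlib 3.10.9).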

Additional observations from a re-analysis of the deposited data

Results flagged for a closer look

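Among the members and the treatment contrasts, the lines moved in opposite directions in 12 pairs of gene and contrast, with both counting intervals excluding no change. Each line has 1 library per group, so the difference between the lines was not tested in any of them. The share of all genes that meet the same rule was not computed, so the count has no background and is not a trait of these members. The rule admits small shifts where reads are many, such as those of PIK3R3 with both drugs against JQ1 (0.060 in SKBR-3, -0.39 in BT474m1). The largest gap was that of INPP4B, at a log2 fold change of 0.65 (SKBR-3) and -3.50 (BT474m1) with JQ1 against DMSO, and of 0.74 and -2.28 with both drugs.

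For PIK3R1 the values with both drugs against DMSO were 1.11 (SKBR-3) and -0.46 (BT474m1). They were 0.998 and -0.85 with both drugs against lapatinib, and 0.48 and -0.41 with both drugs against JQ1. For PIK3CA they were 1.07 and -0.38 with both drugs against DMSO, 0.31 and -0.68 with both drugs against lapatinib, and 0.16 and -0.48 with JQ1 against DMSO.

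The inhibitor PIK3IP1 was at -0.41 (SKBR-3) and 0.30 (BT474m1) with JQ1 against DMSO, and at 0.46 and -0.16 with both drugs against lapatinib. PIK3R3 was at 0.18 and -0.32 with lapatinib against DMSO, and at 0.060 and -0.39 with both drugs against JQ1. These PIK3IP1 and PIK3R3 values all lie under a fold of 2.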

How the results depend on the processing

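No paired analysis was possible because each group holds 1 library, and leaving out a library leaves no contrast. Of the 11 counts of members changed, that of both drugs against lapatinib in SKBR-3 went from 1 to 2 under scaling by the median of ratios, where PIK3R1 reached 1.16 on the log2 scale. The other 10 counts stayed within 1.5 times under that scaling, and all 11 did under the other alternatives. Of the 99 fold changes of the 9 genes, 1 call was lost with a pseudocount of 10 (INPP4B with lapatinib in SKBR-3, 0.91) and 1 with equal totals (PIK3CA with both drugs in SKBR-3, 0.98). The direction turned for 4 under the median of ratios and for 1 under equal totals, all of PIK3CB, PIK3R2 or PIK3CD and under a fold of 2. A pseudocount of 10 moved the JQ1 value of INPP5D in SKBR-3 to -1.42, its value with both drugs against JQ1 to 1.60, the PIK3CD difference of the lines to -3.07 and the departure of INPP5D from the sum in SKBR-3 from 0.35 to -0.71. The median over all genes moved from -0.08 to -0.22 with equal totals for JQ1 in SKBR-3. Under the median of ratios it moved from -0.11 to 0 for both drugs against lapatinib in SKBR-3, and from 0.21 to 0.06 between the lines. Depth limits PIK3CD in BT474m1 and INPP5D in SKBR-3 with JQ1, which rest on 25 reads or fewer.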
